A study of Mus musculus with 8 samples.

Results

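The mitotic spindle and G2/M genes are a list of 52 genes that act between the end of DNA replication and the separation of daughter cells. They were chosen by gene symbol, and with earlier results of these arrays in view, so that the comparison of arrays titled G-CSF with arrays titled Naive was already known for the list. Of the 52 genes, 46 had at least 1 probe listed under their name, 73 probes of the 25697 on the array. A probe was kept when its detection p-value was under 0.01 on at least 4 of the 8 arrays, which left 41 probes of 32 genes, among 10205 kept probes of the whole array. The values below are log2 intensities of the brightest kept probe of a gene, after background correction and quantile normalisation, and they are compared between arrays for 1 gene at a time.

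The RNA came from CD4+GFP+ regulatory T cells of C57BL/6 mice in which GFP reports FoxP3, and both groups share that strain and reporter. In 4 arrays the title and treatment label read G-CSF, the growth factor that mobilises blood stem cells, and the series asks about its direct signalling to the T cell. The other 4 arrays are titled Naive while their treatment label reads saline, so that the labels do not settle whether those mice were injected. Dose, time, age and the number of mice behind an array are not given in the labels, and the p-values therefore measure the spread between these arrays, which may be technical.

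In the deposited table the detection p-values beside each array's intensities follow the intensities of the same replicate number in the other group, for 8 of 8 arrays. Every higher or lower below is by the title of the intensity column, and would turn round if those columns are the ones out of place. Median raw intensity was 125.4, 125.8, 180.8 and 145.0 on G-CSF replicates 1 to 4, against 124.7, 122.4, 117.8 and 123.3 on Naive replicates 1 to 4, so G-CSF replicates 3 and 4 were the brightest arrays and Naive replicate 3 the dimmest. The 8 T cell and Treg markers were well above background on all 8 arrays, with a mean of 12.50 to 12.72 on arrays titled G-CSF and 12.29 to 12.63 on arrays titled Naive. Cd4, the gene of the sort marker, had 8.79 to 9.64 on arrays titled G-CSF and 8.60 to 9.08 on those titled Naive.

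A cell enters mitosis when cyclin B and Cdk1 become active, a step that Plk1 and the Aurora kinases reinforce. Kinesins then build and move the spindle, the kinetochore and the chromosomal passenger complex attach chromosomes to it, and the spindle checkpoint holds the anaphase-promoting complex (APC/C) back until every chromosome is attached. The genes of these proteins are transcribed in a burst late in the cell cycle and are shut in resting cells, largely through CCAAT boxes bound by NF-Y and through the cell cycle genes homology region (CHR), a short element bound by the DREAM and MuvB complexes. Regulatory T cells are known as one of the more actively dividing T cell populations in a resting mouse, so a sorted pool can hold both cycling and resting cells. In such bulk RNA, fewer dividing cells and less mitotic RNA per dividing cell cannot be told apart.

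Promoter sequence is a property the choice of genes did not use, and it was shared by most of them. RefSeq promoters of GRCm38.p6, each 300 bases with 250 before and 50 after the annotated start, were found for 43 of the 52 genes. The CHR, searched as TTTGAA on both strands, was present in 32 of the 43 genes (74.4%), against 14.3% of the 5891 genes with a kept probe that are in the same table and 20.2% of all 27025 genes in it. CCAAT, on both strands, was present in 34 genes (79.1%), against 44.4% of genes with a kept probe and 41.1% of all genes. A CCAAT and a CHR match can share at most 1 end base. Both motifs stood together in 28 genes (65.1%), against 6.01% of genes with a kept probe. The 43 genes include some without a kept probe. Among the 28 with a kept probe, TTTGAA was in 22 (78.6%), CCAAT in 21 (75%) and both in 19 (67.9%).

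**Figure D1:**
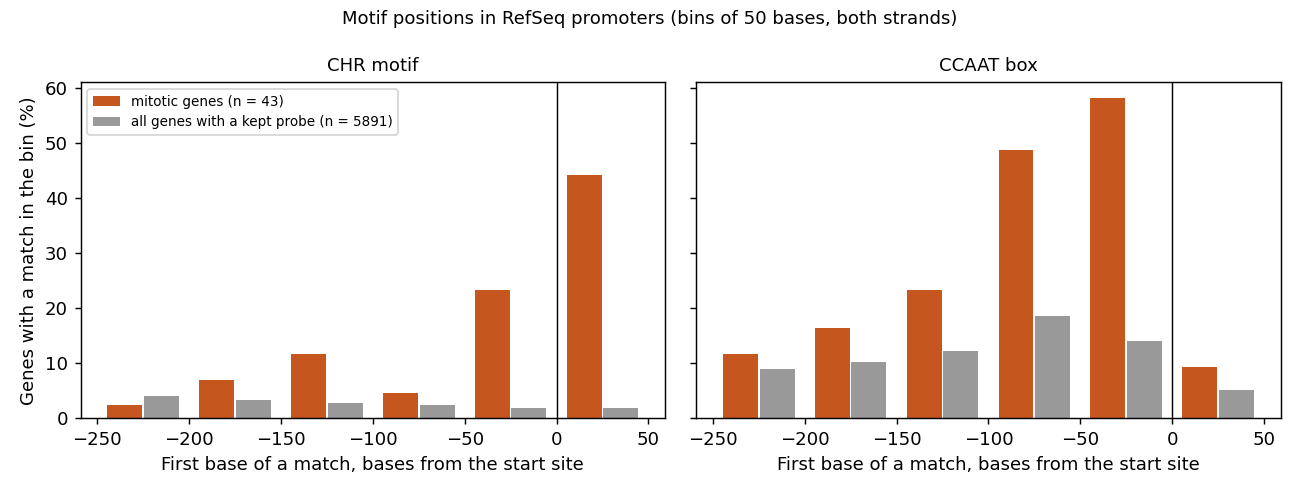
Share of genes (y axis, percent) with a match in each bin of 50 bases of the promoter, by distance from the annotated start (x axis, bases), for the 43 mitotic genes and for the 5891 genes with a kept probe. CHR matches of the mitotic genes were most frequent in the bin from 0 to 50 (44.2% of genes, against 1.85%), and CCAAT matches in the bin from -50 to 0 (58.1%, against 14.1%).

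Position was shared as well as presence. A CHR lay wholly within 50 bases of the start in 29 of the 43 genes (67.4%) and in 3.67% of genes with a kept probe, a window set after the positions were seen. The variant TTCGAA, which reads the same on both strands, was in 4 genes (9.3%, against 2.97%), among them Bub1 and Sgo1, which have no TTTGAA. Measured genes with neither form were Birc5, Gtse1, Mad2l1, Ncaph and Nusap1. S phase genes, a list of 25 replication and nucleotide genes, held TTTGAA in 3 of the 21 genes with a promoter entry (14.3%), and other G2/M genes outside the 52 in 23 of 42 such genes (54.8%).

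The promoters of 6 genes are shown because they belong to genes whose levels the results below turn on, printed 5′ to 3′ on the strand of the gene with TTTGAA and CCAAT, or their reverse complements TTCAAA and ATTGG, in capitals.
Aspm (chr1:139454523-139454822, plus strand): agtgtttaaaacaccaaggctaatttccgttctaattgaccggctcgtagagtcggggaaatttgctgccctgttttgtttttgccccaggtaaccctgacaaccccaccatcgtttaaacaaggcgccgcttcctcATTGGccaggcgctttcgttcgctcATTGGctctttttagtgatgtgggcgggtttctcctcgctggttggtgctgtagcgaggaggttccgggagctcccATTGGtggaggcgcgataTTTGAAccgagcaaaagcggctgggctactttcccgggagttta
Kif2c (chr4:117178723-117179022, minus strand): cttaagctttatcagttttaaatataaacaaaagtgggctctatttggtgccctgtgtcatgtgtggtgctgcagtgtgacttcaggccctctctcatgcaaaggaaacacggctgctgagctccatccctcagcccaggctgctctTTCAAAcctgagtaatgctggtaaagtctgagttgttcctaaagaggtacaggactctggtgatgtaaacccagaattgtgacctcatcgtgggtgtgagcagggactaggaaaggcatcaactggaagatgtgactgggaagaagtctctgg
Ckap5 (chr2:91526512-91526811, plus strand): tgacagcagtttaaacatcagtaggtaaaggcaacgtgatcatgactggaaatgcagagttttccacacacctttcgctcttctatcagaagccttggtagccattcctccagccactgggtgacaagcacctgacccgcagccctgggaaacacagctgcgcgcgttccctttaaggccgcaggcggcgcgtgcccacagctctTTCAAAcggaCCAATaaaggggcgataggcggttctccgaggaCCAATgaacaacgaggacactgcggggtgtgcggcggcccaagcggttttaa
Ncapd2 (chr6:125191537-125191836, minus strand): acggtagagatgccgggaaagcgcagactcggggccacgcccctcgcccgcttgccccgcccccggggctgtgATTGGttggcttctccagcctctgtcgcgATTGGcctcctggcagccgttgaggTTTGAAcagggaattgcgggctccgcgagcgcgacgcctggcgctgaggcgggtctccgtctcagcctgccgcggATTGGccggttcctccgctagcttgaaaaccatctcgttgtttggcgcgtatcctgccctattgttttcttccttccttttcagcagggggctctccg
Kif18b (chr11:102925075-102925374, minus strand): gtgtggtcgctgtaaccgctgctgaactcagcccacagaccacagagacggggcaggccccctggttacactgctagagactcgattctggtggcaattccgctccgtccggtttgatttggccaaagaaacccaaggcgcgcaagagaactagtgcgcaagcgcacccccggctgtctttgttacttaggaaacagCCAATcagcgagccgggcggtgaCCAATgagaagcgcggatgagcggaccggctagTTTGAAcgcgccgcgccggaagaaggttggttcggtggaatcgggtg
Plk1 (chr7:122159185-122159484, plus strand): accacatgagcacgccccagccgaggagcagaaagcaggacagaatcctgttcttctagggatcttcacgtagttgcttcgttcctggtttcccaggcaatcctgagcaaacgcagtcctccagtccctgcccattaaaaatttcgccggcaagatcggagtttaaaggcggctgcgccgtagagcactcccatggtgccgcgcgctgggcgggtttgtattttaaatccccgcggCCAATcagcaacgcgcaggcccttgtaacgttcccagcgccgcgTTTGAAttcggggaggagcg

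Aspm and Kif18b show the usual layout, with CCAAT boxes first and the CHR at the start. In Aspm the CCAAT matches begin at -113, -88 and -12 and the CHR at 6, counted in bases from the annotated start as 0. In Kif18b they begin at -53 and -30, and the CHR at 3. Plk1 has 1 CCAAT at -14 and its CHR at 30. Ckap5 has the CHR first, at -45 on the opposite strand, with CCAAT at -35 and -2. Ncapd2 has its CHR further away, at -123, between CCAAT matches at -177, -148 and -48. Kif2c has 1 CHR at -103 and no CCAAT in this window. A match is only a stretch of letters in the window, and binding was not measured here.

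Mitotic transcripts were readable in both groups but more widely on arrays titled G-CSF. Of the 46 genes with a named probe, 33, 32, 33 and 33 were detected on G-CSF replicates 1 to 4, against 31, 30, 24 and 29 on Naive replicates 1 to 4. The ranges do not overlap, and Naive replicate 3 had the fewest. Over all probes the ranges do overlap, at 9969 to 10519 on arrays titled G-CSF and 9588 to 10402 on those titled Naive, and Naive replicate 3 again had the fewest. The 14 genes that were not kept were Ccna2, Ccnb2, Cks2, Cdc25c, Ttk, Bub1, Ube2c, Espl1, Cenpe, Nuf2, Kif20a, Hmmr, Ect2 and Smc2. Espl1, the separase that cuts cohesin at anaphase, was detected on 2 arrays titled G-CSF and on 0 titled Naive, and Cdc25c, a phosphatase that activates Cdk1, on 1 and 0. The other 12 were not well above background on any array, among them the genes of cyclin A2, cyclin B2 and the APC/C enzyme Ube2c. Mki67, Ccnb1, Aurkb, Kif20b, Racgap1 and Smc4 had no probe listed under their names and were not analysed here.

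Across the 32 measured genes the difference leaned to higher levels on arrays titled G-CSF. It was positive for 30 genes and negative for 2, where 52.0% of all 7109 genes with a kept probe were positive. The median difference was 0.58 on the log2 scale (quartiles 0.23 and 0.92), beside 0.02 for all genes with a kept probe. In the limma fit over all 10205 kept probes, 5 of the 32 genes rose at a Benjamini-Hochberg adjusted p under 0.05, and 0 fell (adjusted p between 0.0471 and 0.0489), beside 1.01% of all genes called higher and 0.802% called lower. Over all kept probes, 2.2% were called, 0.951% higher and 1.24% lower. On any kept probe 7 of the 32 genes were called higher, Kif18b and Gtse1 through a dimmer probe. At an unadjusted limma p under 0.05 the counts were 18 higher and 0 lower, beside 13.6% of all genes higher and 9.24% lower. Levels on arrays titled G-CSF lay wholly above those titled Naive for 10 of the 32, beside 7.39% of all genes, and wholly below for 0, beside 5.36%. Because the list was chosen with this comparison known, these counts describe it and test nothing, and a gene passed the filter more easily when it was high in 1 group. Aspm, counted among the 5 and the 10, passed it only through arrays titled G-CSF, as did the dimmer Gtse1 probe.

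**Figure D2:**
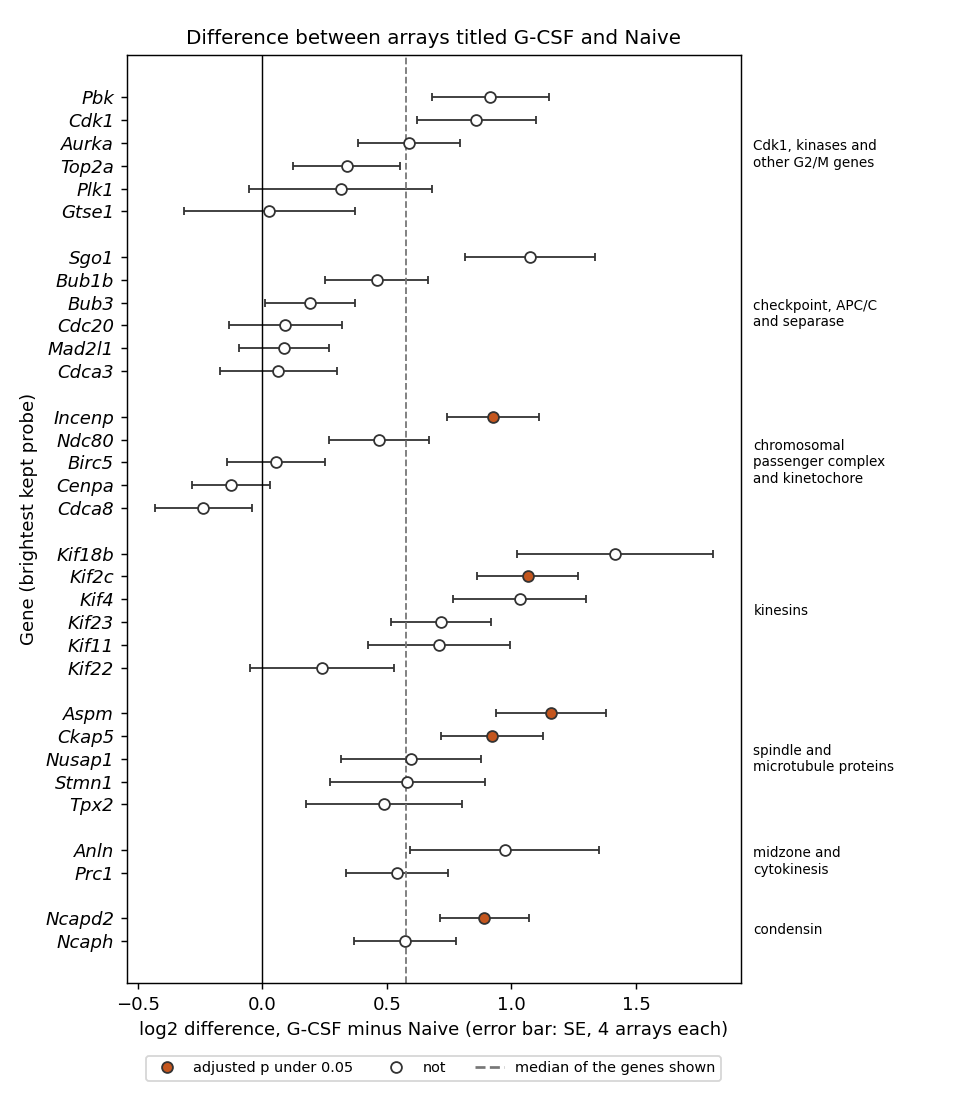
Difference in log2 intensity between 4 arrays titled G-CSF and 4 titled Naive (x axis) for the 32 measured genes, in rows by role, with the standard error of the limma fit. Filled points are the 5 genes with an adjusted p under 0.05, and the dashed line is the median of 0.58.

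The counts changed when single arrays were left out. Without Naive replicate 3 the median difference of the 32 genes was 0.38, 25 were positive, and limma called 0 of them, among 1 called probe in all. Of these genes 11 had an unadjusted limma p under 0.05, beside 1888 of 10154 kept probes. Limma also called 0 when G-CSF replicate 2, 3 or 4 or Naive replicate 2 or 4 was left out. In those fits it called only 1, 2, 1, 9 and 1 probes in all. There 17, 15, 14, 19 and 12 of the mitotic genes had an unadjusted limma p under 0.05. So did 2576, 1975, 1569, 1974 and 1914 of all kept probes, which numbered 10027 to 10129. Mitotic genes called were 5 without G-CSF replicate 1 and 13 without Naive replicate 1. In those last cases 3.31% and 5.99% of all kept probes were called higher, so calls also increased across the array. The median stayed between 0.50 and 0.73 in these other cases. With G-CSF replicates 3 and 4, the brightest arrays, left out, the median of the 31 genes still measured was 0.61 and 30 were positive. Limma called 0 of them, among 0 called probes in all. Of the 31 genes 11 had an unadjusted limma p under 0.05, beside 1406 of 9831 kept probes. Of the called genes, Ckap5, Incenp, Ncapd2 and Kif2c had differences of 0.68, 0.79, 0.73 and 1.09 there, against 0.92, 0.93, 0.89 and 1.06 with all arrays. Aspm then had no kept probe. What sets the median was not tested.

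Among spindle and microtubule proteins, Aspm and Ckap5 rose. Aspm, which holds microtubules at the spindle poles, had 6.35, 6.52, 6.17 and 6.58 on G-CSF replicates 1 to 4, against 5.90, 5.23, 4.77 and 5.09 on Naive replicates 1 to 4. It was well above background on all 4 arrays titled G-CSF and on 0 titled Naive, so it was kept only through the higher group. Its fold change is a lower bound, at least 1.10-fold higher, and the bound itself was not tested. The limma adjusted p of 0.0471 belongs to the fitted difference. The call rests on values near background on arrays titled Naive. The bound sets the mean of arrays titled G-CSF against a floor for arrays titled Naive, the mean over those arrays of the higher of the lowest detected signal and the probe's own. The groups did not overlap, and Naive replicate 1 was the nearest to the arrays titled G-CSF.

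Ckap5, a microtubule polymerase, had 9.40, 9.53, 9.96 and 9.93 on arrays titled G-CSF, against 9.27, 8.47, 8.59 and 8.80 on those titled Naive. The groups did not overlap, but G-CSF replicate 1 and Naive replicate 1 lay close together. The difference was 0.92 ± 0.20 (SE, n = 4 per group, limma adjusted p = 0.0489). Stmn1, which destabilises microtubules, was spread within its group, at 7.84, 7.31, 8.48 and 8.83 on arrays titled G-CSF, against 7.80, 7.77, 6.97 and 7.60 on those titled Naive. Its difference of 0.58 ± 0.31 came with overlapping groups and was not called. Nusap1 and Tpx2, which bundle and nucleate spindle microtubules, had differences of 0.60 ± 0.28 and 0.49 ± 0.31, with overlap in both. Tpx2 was well above background on 4 arrays titled G-CSF and on 2 titled Naive.

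All 6 measured kinesins had a positive difference, with a median of 0.87, and Kif2c alone was called on its brightest probe. Kif2c, which takes microtubules apart at the centromere, had 8.17, 8.05, 7.91 and 8.13 on arrays titled G-CSF, against 7.49, 7.22, 6.56 and 6.74 on those titled Naive. The arrays titled G-CSF were tightly grouped, with all Naive values below them. The difference was 1.06 ± 0.20 (SE, n = 4 per group, limma adjusted p = 0.0471).

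Kif18b, which controls astral microtubule length, had the largest difference of the 32 genes and the widest spread among arrays titled Naive. Its brightest probe had 7.38, 7.56, 7.94 and 7.99 on arrays titled G-CSF, against 7.46, 6.60, 5.18 and 5.96 on those titled Naive. Naive replicate 1 lay inside the range of the arrays titled G-CSF, and the difference of 1.42 ± 0.39 was not called (limma adjusted p = 0.0743). This probe was well above background on 4 arrays titled G-CSF and on 2 titled Naive, so its size and rank rest partly on values near background. A dimmer probe had 7.10, 6.78, 7.45 and 7.20, against 6.63, 5.78, 4.96 and 5.56. On that probe the groups did not overlap and the gene was called, with a difference of 1.40 ± 0.30 (limma adjusted p = 0.0476), though it was well above background on only 1 array titled Naive.

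Kif4, a chromosome-bound kinesin of the midzone, had 7.77, 7.66, 7.85 and 7.77 on arrays titled G-CSF, against 7.53, 6.91, 6.02 and 6.46 on those titled Naive. Its groups did not overlap, and the difference of 1.03 ± 0.27 was not called (limma adjusted p = 0.0636). The SD was 0.08 on arrays titled G-CSF and 0.65 on those titled Naive. Kif11, the motor that pushes spindle poles apart, had 8.05, 7.25, 8.08 and 7.96, against 7.45, 7.42, 6.26 and 7.37. A single array stood apart in each group, G-CSF replicate 2 and Naive replicate 3, both low. Kif23, a midzone motor of cytokinesis, had a difference of 0.72 ± 0.20 with overlap. Kif22, which pushes chromosome arms outward, had 10.03, 9.85, 9.09 and 9.32 against 9.74, 9.86, 8.67 and 9.06, a difference of 0.24 ± 0.29 within the spread of both groups.

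**Figure D3:**
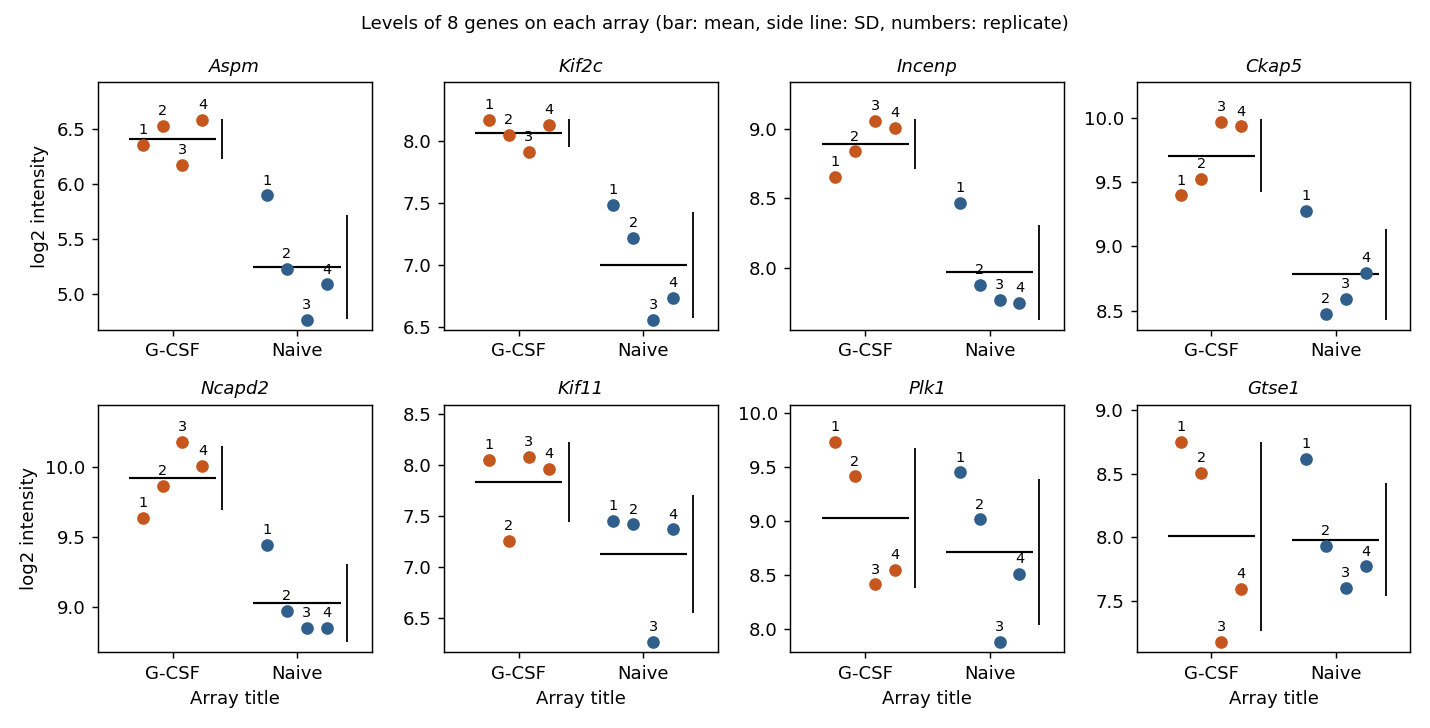
Log2 intensity (y axis) of 8 genes on each array, by title (x axis), with numbers for replicates, bars for means and side lines for SD (n = 4 per group). Aspm, Kif2c, Incenp, Ckap5 and Ncapd2 have no overlap between the titles, while Kif11 has a low array in each and Plk1 and Gtse1 split G-CSF replicates 1 and 2 from 3 and 4.

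The chromosomal passenger complex did not move as 1 unit. Incenp, its scaffold, rose, with 8.66, 8.84, 9.06 and 9.01 on arrays titled G-CSF, against 8.47, 7.88, 7.77 and 7.75 on those titled Naive, and no overlap. The difference was 0.93 ± 0.18 (SE, n = 4 per group, limma adjusted p = 0.0471). Birc5, or survivin, had 10.30, 10.03, 10.25 and 10.12, against 10.30, 10.55, 9.59 and 10.04, a difference of 0.05 ± 0.20. Its other kept probes gave -0.56 ± 0.21 and -0.39 ± 0.21, so its 3 probes disagree in sign, and limma called 0 of them (1 at an unadjusted p under 0.05, the probe at -0.56).

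Cdca8, or borealin, had 7.59, 6.75, 7.47 and 7.22 on arrays titled G-CSF, against 7.46, 7.58, 7.25 and 7.71 on those titled Naive. Its difference of -0.24 ± 0.19 was the most negative of the 32 and lay within the spread. At the kinetochore, Cenpa, the histone H3 variant of centromeres, had 13.50, 13.45, 13.24 and 13.16, against 13.54, 13.75, 13.23 and 13.34, a difference of -0.13 ± 0.16. These are the only 2 measured genes with a negative difference on the brightest probe, and both turned positive under median scaling, which moved the median over all kept probes to 0.29, against -0.01 in the fit used here. Ndc80, which binds microtubule ends, had 0.47 ± 0.20 with overlapping groups.

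Condensin genes, which compact mitotic chromosomes, were measured for 2 of the 4 listed, and both lay wholly higher on arrays titled G-CSF. Ncapd2 had 9.64, 9.87, 10.18 and 10.01 on arrays titled G-CSF, against 9.44, 8.98, 8.85 and 8.86 on those titled Naive, and rose by 0.89 ± 0.18 (SE, n = 4 per group, limma adjusted p = 0.0471). A dimmer probe of Ncapd2 also did not overlap and gave 0.53 ± 0.17 (limma adjusted p = 0.0936). Ncaph had 9.15, 9.09, 9.009 and 9.03, against 9.003, 8.71, 7.98 and 8.30, a difference of 0.57 ± 0.20 that was not called (limma adjusted p = 0.125). Naive replicate 1 all but equalled the lowest array titled G-CSF.

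Among Cdk1, mitotic kinases and the genes listed with them, 6 of 6 measured had a positive difference and limma called 0. Of the 6, 3 were higher at an unadjusted limma p under 0.05, beside 13.6% of all genes. Cdk1, the kinase that drives entry into mitosis, had 8.63, 8.18, 8.97 and 8.58 on arrays titled G-CSF, against 7.96, 8.20, 7.13 and 7.63 on those titled Naive. Naive replicate 2 lay just above G-CSF replicate 2, and the difference was 0.86 ± 0.24 (limma adjusted p = 0.0750). Pbk, a kinase active in mitosis, had 9.23, 9.01, 9.25 and 9.37, against 8.43, 8.89, 7.61 and 8.27, with no overlap (0.92 ± 0.24, limma adjusted p = 0.0626). Aurka, the spindle pole kinase, also did not overlap, at 8.60, 8.48, 8.79 and 8.78 against 8.43, 8.46, 7.73 and 7.68, though 2 arrays titled Naive came close to the lowest titled G-CSF.

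Plk1 and Gtse1 varied more inside the groups than between them. Plk1, a kinase of mitotic entry and exit, had 9.74, 9.42, 8.42 and 8.55 on arrays titled G-CSF, against 9.45, 9.02, 7.88 and 8.51 on those titled Naive, a difference of 0.31 ± 0.37. Gtse1, a microtubule-binding protein of G2, had 8.75, 8.51, 7.17 and 7.60, against 8.62, 7.93, 7.60 and 7.77, a difference of 0.03 ± 0.34. A dimmer Gtse1 probe was well above background on 4 arrays titled G-CSF and on 0 titled Naive. It was thus kept only through the arrays titled G-CSF, and its fitted difference was called (limma adjusted p = 0.0471). Its fold change is at least 1.23-fold higher, a bound that was not itself tested. The probes of Gtse1 therefore disagree. Top2a, which untangles sister chromatids, had 9.52, 8.97, 9.56 and 9.25, against 9.37, 9.07, 8.42 and 9.08, a difference of 0.34 ± 0.22 with overlap.

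Checkpoint and APC/C genes had small differences apart from Sgo1 and Bub1b. Their median was 0.14 over 6 measured genes, and 0 were called. Sgo1 and Bub1b, 2 of the 6, were higher at an unadjusted limma p under 0.05, beside 13.6% of all genes. Sgo1, the shugoshin that protects centromeric cohesion, had 7.52, 7.22, 7.93 and 8.07 on arrays titled G-CSF, against 6.996, 7.04, 6.00 and 6.42 on those titled Naive. The groups did not overlap, and the difference of 1.07 ± 0.26 had the smallest adjusted p of the genes not called (0.0582 by limma). Bub1b, the checkpoint protein BubR1, had 0.46 ± 0.21, with values of 7.27 to 7.55 on arrays titled G-CSF and 6.47 to 7.47 on those titled Naive. Bub3 and Mad2l1, which act beside it in the checkpoint complex, had 0.19 ± 0.18 and 0.09 ± 0.18. Bub3 was the only measured gene whose lowest array was Naive replicate 1 (7.66, with 8.19 to 8.56 on arrays titled G-CSF and 8.26 to 8.43 on the other arrays titled Naive).

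Cdc20, the APC/C activator of anaphase, had 10.19, 10.08, 9.60 and 9.56 on arrays titled G-CSF, against 9.93, 10.23, 9.28 and 9.62 on those titled Naive, a difference of 0.09 ± 0.23. Its 3 other kept probes gave 0.36, 0.25 and -0.30, so the sign depends on the probe. Cdca3, which marks Wee1 for degradation, had 0.06 ± 0.23 on its brightest probe and 0.56 ± 0.27 on the other. In cytokinesis, Anln, the anillin scaffold of the furrow, had 7.65, 7.30, 7.01 and 7.05, against 7.43, 6.50, 5.23 and 5.95. Naive replicate 1 again lay among the arrays titled G-CSF, and the difference of 0.97 ± 0.38 was not called (limma adjusted p = 0.153). Anln was well above background on 4 arrays titled G-CSF and on 2 titled Naive, so this size rests partly on values near background. Prc1, which bundles midzone microtubules, had 0.54 ± 0.20 with overlap by a single array.

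The spread among arrays titled Naive ran the same way through most of the genes. Naive replicate 3 was the lowest of the 4 arrays titled Naive for 27 of the 32 genes, beside 17.7% of all genes with a kept probe. It was the lowest of all 8 arrays for 24, a count for which the share of all genes was not computed. Replicate 1 or 2 was the highest of the 4 for 31 genes, beside 66.2% of all genes. Averaged over the 32 genes after centring each on its mean, the level was 0.38, 0.19, 0.27 and 0.29 on G-CSF replicates 1 to 4, against 0.13, -0.04, -0.81 and -0.41 on Naive replicates 1 to 4. The SD between arrays was 0.08 for G-CSF and 0.42 for Naive. The gap between the titles was small, with G-CSF replicate 2 at 0.19 and Naive replicate 1 at 0.13.

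**Figure D4:**
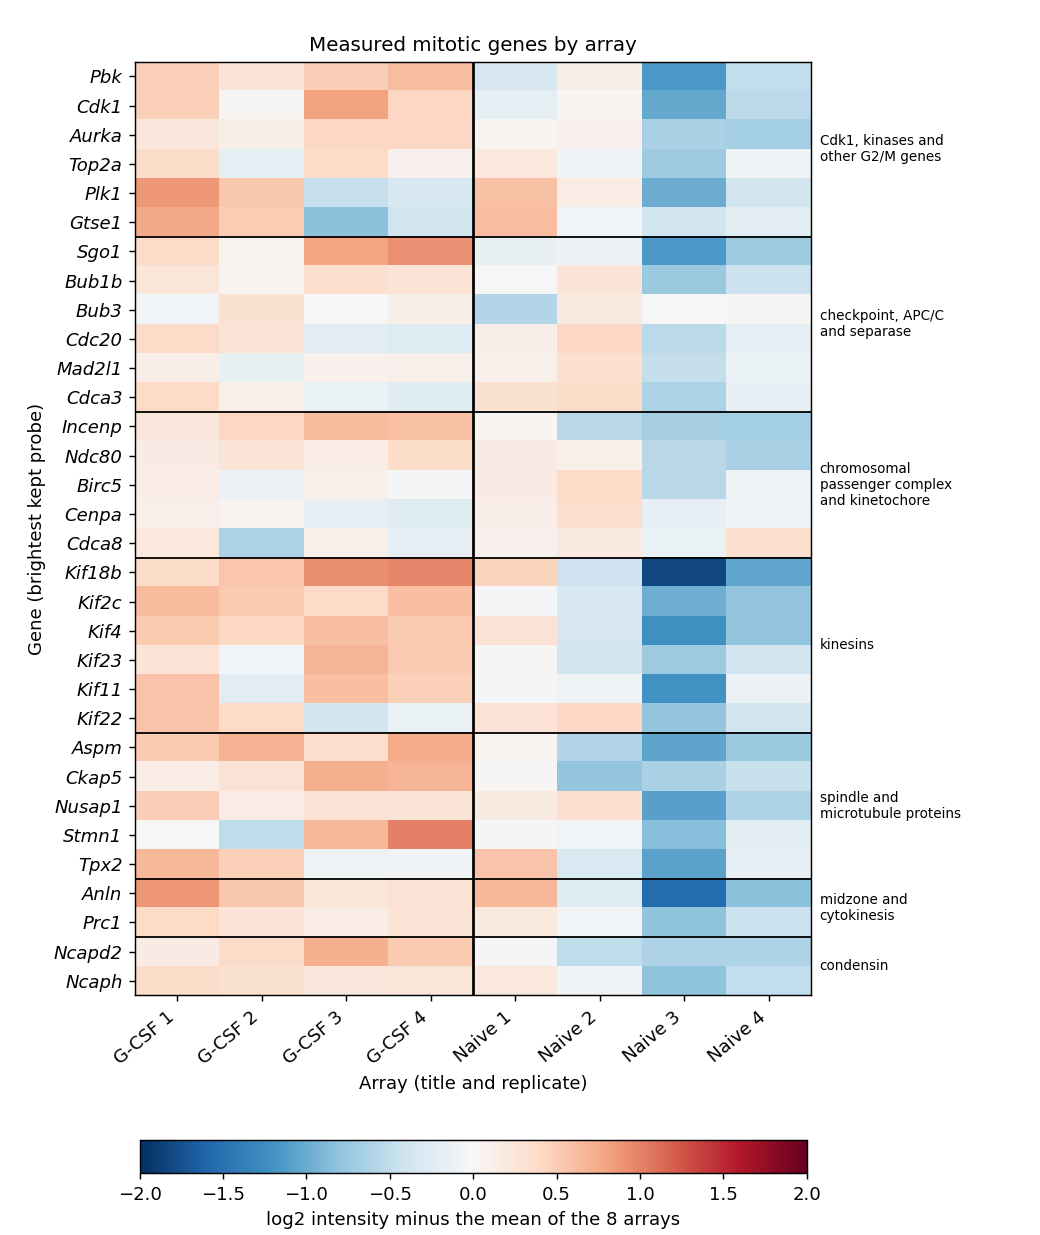
Log2 intensity of the 32 measured genes (rows, by role) on the 8 arrays (columns, G-CSF left), each gene centred on its mean over 8 arrays. The column of Naive replicate 3 is the darkest blue in most rows, and Naive replicate 1 resembles the arrays titled G-CSF in many of them.

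On Naive replicate 3 the mean centred level was -1.12 for kinesins and -1.17 for midzone genes, -0.59 for checkpoint genes and -0.41 for passenger complex and kinetochore genes. On that array 8 of the 32 genes were not well above background (Kif11, Kif18b, Kif4, Anln, Aspm, Tpx2, Bub1b and Sgo1), so their values there are bounds and the means of roles that hold them are not compared. Among arrays titled G-CSF no such common order was seen. Replicates 1 and 2 both lay above replicates 3 and 4 for 9 of the 32 genes and below them for 10, beside 35.1% and 32.3% of all genes with a kept probe. The first kind included Gtse1, Plk1, Kif22, Tpx2 and Cdc20, and the second Stmn1, Sgo1, Kif18b, Kif23 and Ckap5. The mean over replicates 3 and 4 minus that over replicates 1 and 2 ran between -1.24 for Gtse1 and 1.08 for Stmn1.

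Other genes of the pathway were listed to set beside these. Among 27 measured G2/M genes outside the 52, 22 had a positive difference and the median was 0.28. In that list limma called 0. Counts at an unadjusted limma p under 0.05 were 6 higher and 1 lower, beside 13.6% and 9.24% of all genes. On arrays titled G-CSF 1 gene lay wholly higher and 1 wholly lower, beside 7.39% and 5.36% of all genes. Ncapg2, a condensin II subunit, was the higher one (6.77, 6.39, 6.69 and 6.67 on arrays titled G-CSF, against 6.16, 6.16, 4.79 and 5.71 on those titled Naive), and was well above background on 4 and 1 of these arrays. Hmgb2, a chromatin protein of dividing cells, was the lower one (11.26, 10.30, 10.94 and 10.20, against 11.37, 11.40, 11.27 and 11.40). Their mean centred level was 0.20, 0.10, 0.13 and 0.07 on G-CSF replicates 1 to 4, against 0.10, 0.09, -0.41 and -0.28 on Naive replicates 1 to 4, with the same array lowest. Of 20 measured S phase genes 16 were positive with a median of 0.31, and 1 was called higher, beside 1.01% of all genes. It was the thymidine kinase gene Tk1 (0.84 ± 0.18, limma adjusted p = 0.0477). At an unadjusted limma p under 0.05, 7 of the 20 were higher and 1 lower, beside 13.6% and 9.24% of all genes. Levels on arrays titled G-CSF lay wholly higher for 6 of the 20, beside 7.39% of all genes, and wholly lower for 0, beside 5.36%. The mean centred level of the S phase genes, 0.18, 0.00, 0.19 and 0.15 against 0.09, 0.03, -0.43 and -0.21, was also lowest on Naive replicate 3.

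Genes that control the transcription of the mitotic programme lay on both sides. Of 17 measured, 8 were positive with a median of -0.01, and limma called 0. Counts at an unadjusted limma p under 0.05 were 3 higher and 1 lower, beside 13.6% and 9.24% of all genes. Foxm1, an activator of G2/M genes, had 0.29 ± 0.13 with no overlap, at 7.01, 7.02, 7.10 and 7.16 on arrays titled G-CSF, against 6.91, 6.66, 6.69 and 6.86 on those titled Naive. Rb1, the retinoblastoma protein gene, lay wholly lower, at 11.01, 11.34, 11.10 and 11.04, against 12.002, 11.62, 11.50 and 11.54 (-0.54 ± 0.15, limma adjusted p = 0.0758). Foxm1 and Rb1 were the 2 genes of that list without overlap, 1 wholly higher and 1 wholly lower, beside 7.39% and 5.36% of all genes. E2f4, the repressor E2F of the DREAM complex, had 1.10 ± 0.31 (limma adjusted p = 0.0766), with G-CSF replicates 3 and 4 at 10.88 and 10.87 and all other arrays between 8.95 and 9.90. Mybl2, its activating counterpart in MuvB, had -0.01 ± 0.30.

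In the list of entry control and APC/C genes, 14 of 19 measured had a negative difference, with a median of -0.21. Limma called 2 lower, beside 0.802% of all genes. At an unadjusted limma p under 0.05, 6 were lower and 0 higher, beside 9.24% and 13.6% of all genes. Levels on arrays titled G-CSF lay wholly lower for 3 and wholly higher for 1, beside 5.36% and 7.39% of all genes. Ppp1cc, a phosphatase catalytic subunit of mitotic exit, had 6.84, 5.98, 6.95 and 6.29 on arrays titled G-CSF, against 7.26, 7.68, 7.83 and 7.52 on those titled Naive (-1.06 ± 0.23, limma adjusted p = 0.0471). Ube2s, which extends ubiquitin chains for the APC/C, had 6.35, 6.15, 6.23 and 5.84, against 6.81, 7.31, 6.85 and 6.97 (-0.84 ± 0.16, limma adjusted p = 0.0471). Ube2s was well above background on 2 arrays titled G-CSF and 4 titled Naive, and Ppp1cc on 3 and 4. Neither gene's groups overlapped. Of 9 measured cohesin genes 5 were positive, and limma called 0 (2 higher at an unadjusted p under 0.05, beside 13.6% of all genes).

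**Figure D5:**
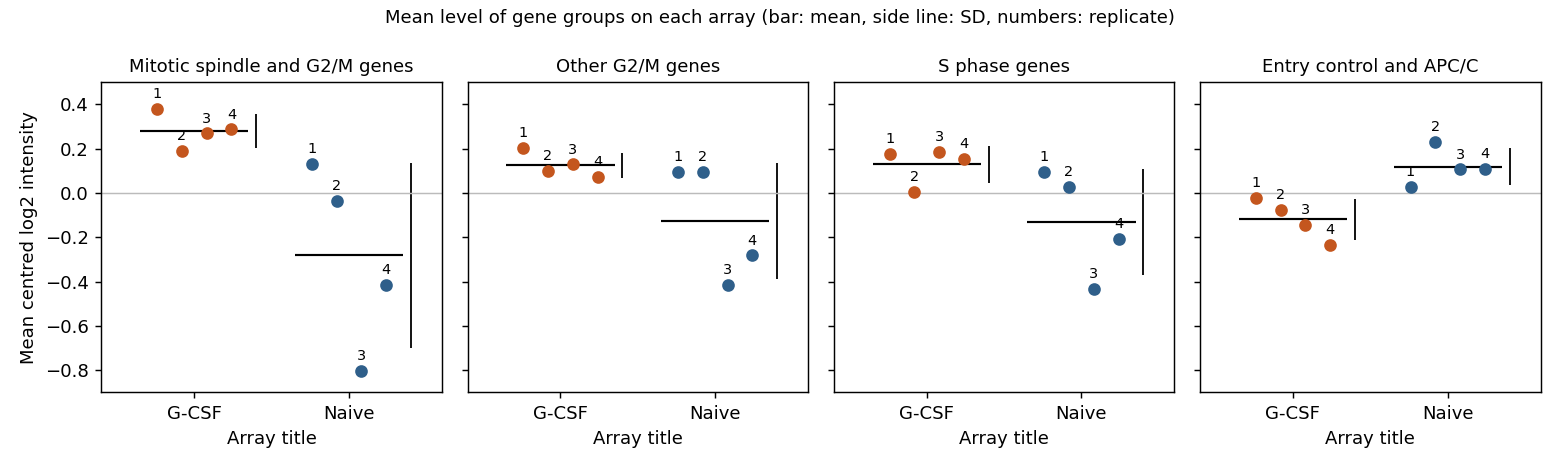
Mean centred log2 intensity (y axis) of 4 gene groups on each array, by title (x axis), with replicate numbers, means and SD (n = 4 per group). Naive replicate 3 is the lowest array for the mitotic genes at -0.81, for other G2/M genes at -0.41 and for S phase genes at -0.43, but not for entry control and APC/C genes.

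Markers of other blood cells gave the following values beside these results. None of the 3 progenitor markers with a named probe was kept, nor were Mpo, Elane, Prtn3, Ctsg and Camp of myeloid precursors or Klf1, Alas2, Slc4a1 and Epor of erythroid cells. The haemoglobin genes Hba-a1 and Hbb-bt, 2 of the 6 erythroid markers with a named probe, averaged 7.74 to 9.12 on arrays titled G-CSF and 6.80 to 8.15 on those titled Naive. Ltf, the 1 kept of 6 myeloid precursor markers, had 5.30 to 6.45 on arrays titled G-CSF and 5.64 to 7.33 on those titled Naive. Lyz2, the 1 kept of 5 myeloid markers, had 9.62 to 10.70 and 8.88 to 10.35 in the same order. Cd79b was the 1 kept of 3 B cell markers with a named probe, and Cd8b1 the 1 kept of 2 CD8 T cell markers. Cd79a, Ms4a1 and Cd8a were not kept. Cd79b had 9.80 to 10.07 on arrays titled G-CSF and 9.76 to 10.16 on those titled Naive. Cd8b1 had 10.97 to 11.59 and 11.42 to 11.69 in the same order. Limma called 0 of these 6 genes. Hbb-bt was higher and Ltf lower at an unadjusted limma p under 0.05, beside 13.6% and 9.24% of all genes. Hbb-bt was well above background on 4 arrays titled G-CSF and 2 titled Naive, and Ltf on 1 and 3. Both differences thus rest partly on values near background. The part of these 6 genes in the mitotic differences was not tested. Foxp3, the gene of the sorted reporter, had 13.30, 13.51, 13.03 and 13.37 on arrays titled G-CSF, against 13.79, 12.12, 12.59 and 12.76 on those titled Naive, where replicate 1 was the highest and replicate 2 the lowest. Of the 8 T cell and Treg markers limma called 0, and 1 was lower at an unadjusted p under 0.05, beside 9.24% of all genes. This was the inhibitory receptor gene Ctla4. It lay wholly lower, at 13.70, 13.85, 13.41 and 13.57 on arrays titled G-CSF, against 14.67, 14.04, 14.00 and 14.09 on those titled Naive (-0.57 ± 0.18, limma adjusted p = 0.0951).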

How the data were processed

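RNA of sorted regulatory T cells was measured on 8 one-colour Illumina MouseRef-8 v2.0 bead arrays, grouped by title. The authors deposited non-normalised intensity values with detection p-values, per the file headers. The submitters' processing notes name GenomeStudio. A deposited log2 table was recomputed as log2 intensities, quantile normalised with each probe centred on its median (correlation of at least 0.9998 on every array), so its scale and direction are those of the intensities, and it was used as an alternative. As placed, the detection p-values ran against the order of the intensities at 12.8% to 23.5% of steps (tolerance 0.0001), so p-values were taken from the 1 column that follows each array's intensities. This sets no sample's group.

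The neqc function (limma 3.58.1, R 4.3.3) applied normexp background correction, an offset of 16, quantile normalisation and log2. Kept probes, with detection p-values below 0.01 in 4 or more arrays, were tested with lmFit and eBayes, which was also tested on simulated data, with Benjamini-Hochberg adjustment over all of them and calls at an adjusted p under 0.05. The brightest kept probe stands for a gene. Folds of genes undetected in 1 group are lower bounds. Probe names come from the platform annotation, updated to RefSeq symbols.

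Members and lists were chosen with earlier results of these data known. Named genes follow a rule, which takes a fixed core, every called member, the extreme differences, the widest spreads, members whose probes disagree and called genes of the pathway lists. Other measured members, markers, Ncapg2, Hmgb2 and the regulators Foxm1, Rb1, E2f4 and Mybl2 were named after their values were seen. Alternatives were other background corrections, scalings, filters, variance models, the deposited log2 table, the replicate number as a block, a gene's mean over probes and arrays left out. The number of arrays limits the precision. Protein sequences were not used here, and the deposited files name no build, so the only coordinates given are those of the RefSeq promoter table, in GRCm38.p6.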

Additional observations from a re-analysis of the deposited data

Results flagged for a closer look

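Of 68 sets of 4 arrays of 1 title, 3 held an array far from the other 3, where chance gives about 1 in 20. Kif11 on G-CSF replicate 2 had a log2 intensity of 7.25 (others 7.96 to 8.08). Kif11 on Naive replicate 3 had 6.26 (others 7.37 to 7.45), where it was not well above background. The number of detected mitotic genes was 32 on G-CSF replicate 2 and 33 on each of the other 3 arrays titled G-CSF, a difference of 1 gene.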

How the results depend on the processing

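The direction of the median difference of the measured mitotic genes held in all 23 alternatives, between 0.33 without a filter on dim probes and 0.91 under median scaling, and between 0.38 and 0.73 with 1 array left out. The calls did not hold in the same way, and their cause was not tested. Of the mitotic genes, 5 were called higher, and 14 under median scaling, 20 with array weights, and 0 when detection p-values under 0.05 sufficed, without a filter, with the mean of a gene's kept probes and without both brightest arrays. With 1 array left out the count ran from 0 to 13. Over all kept probes, 97 were called higher and 127 lower. These counts were 810 and 46 under median scaling, 1880 and 1896 with array weights, 15 and 33 with that looser detection, 0 and 4 without a filter, 3 and 6 over the mean of a gene's probes, and 0 and 0 without both brightest arrays (1406 probes at an unadjusted limma p under 0.05). The number higher was 60 without background correction, 58 in the deposited log2 table and 64 with robust eBayes. With 1 array left out, the number higher ran from 0 to 602 and the number lower from 1 to 477.

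With the replicate number as a block, 0 mitotic genes and 1 higher and 3 lower probes were called. Same-numbered arrays deviated from their group means with correlations of -0.12, -0.02, 0.18 and 0.08. Arrays of unlike number had correlations from -0.29 to 0.31. With 4 arrays per group these values cannot settle whether arrays were paired, and the labels give only the number.

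Genes with small differences changed sign under some settings. Gtse1 became -0.057 with array weights and ran from -0.22 to 0.31 with 1 array left out. Birc5 became -0.30 over the mean of its probes and ran from -0.12 (without Naive replicate 3) to 0.19 with 1 array left out. Cdc20 ran from -0.071 (without Naive replicate 3) to 0.25 with 1 array left out. Cdca8 became 0.064 under median scaling, and Cenpa 0.055 there and 0.022 without both brightest arrays. Under median scaling the median difference over all kept probes was 0.29, against -0.01 in the fit reported.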
